A study of Homo sapiens with 40 samples.

Results

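The genes of cholesterol synthesis, uptake and export were followed in A2058 cells, an established human melanoma line, after exposure to 3 inhibitors of phosphoinositide 3-kinase (PI3K). The list holds 30 genes, taken by symbol for their roles, with earlier results of these arrays known. Among 19775 genes with a probe set annotated to a single gene symbol, 27 of the 30 were found, each read from the probe set with its highest mean log2 signal. Of these 27, 25 were among the 11865 genes bright enough to be tested, with a mean log2 signal above the 40th percentile of genes. ABCA1 and ABCG1, sterol exporters of the plasma membrane, fell below that line, with signals of 1.6 to 10.8 and 1.9 to 9.0 over the 40 arrays, so no change is given for either. FDFT1, which makes squalene, and NR1H2, which encodes the oxysterol receptor LXR beta, had no probe set listed under their symbol alone, and the probe sets of CYP51A1, a lanosterol demethylase, are annotated to LRRD1 as well; these 3 genes were not analysed here.

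Cells were treated once for 24 h with the solvent DMSO or with BKM120, BEZ235 or GDC0941 (written GCD0941 in some labels), and total RNA was hybridised to 1-colour arrays. The labels name the levels IC30, IC50 and IC90/max for BKM120 and IC50, IC90 and max for each of BEZ235 and GDC0941, which with DMSO makes 10 groups of 4 biological replicates. All 40 samples came from this 1 line, grown in high-glucose DMEM with fetal calf serum, pyruvate and glutamine, so p-values measure the spread between cultures of A2058 and not between tumours. The levels carry no molar amounts in the labels, and the same level name for different compounds is not the same concentration. BKM120 and GDC0941 are known as inhibitors of class I PI3K, and BEZ235 also inhibits the kinase mTOR, which acts downstream of PI3K and in complexes of its own.

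Cholesterol is built from acetyl-CoA through mevalonate, isoprenoid diphosphates, squalene and a series of sterols. When sterol in the endoplasmic reticulum is low, SCAP escorts the membrane-bound transcription factor SREBP2 (the product of SREBF2) to the Golgi, where proteases release the part that turns on most genes of the pathway; INSIG proteins hold SCAP back when sterol is plentiful. Oxysterols act in the other direction through the LXR receptors, whose targets export sterol or lower its uptake. In many cell types growth signals through PI3K, AKT and mTORC1 are known to raise the activity of SREBP factors.

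The deposited array intensities, called signals here, were compared as log2(signal + 16). A gene is said to have risen or fallen where limma's moderated test gave a Benjamini-Hochberg adjusted p under 0.05 over all 11865 genes tested, and ± after a log2 difference gives its SE; 95% intervals are for the single gene, without adjustment. The number of arrays, 4 a group, limits the precision. Signals come from bulk RNA, in which fewer cells of a kind and less RNA per cell cannot be told apart. The melanocyte markers MLANA, PMEL, TYR, TYRP1, MITF, SOX10 and S100B were all present, the lowest median signal among them being 179 for TYRP1. The 11 markers of epithelial, blood, endothelial, liver, islet, glial and muscle cells had median signals of 0.4 to 14.8 and summed to between 37.4 and 161.7 an array, against 44.3 to 59.5 with DMSO; the highest sum was in 1 array of BKM120 IC30.

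One array stood apart, replicate 3 of BEZ235 IC50. Its ratio of 3′ to 5′ signal on the ACTB control probe sets was 25.1, against 1.58 to 2.31 on the other 39 arrays, and on GAPDH 3.42 against 1.05 to 1.26. The SD of its log2 values around its group's mean was 0.406, against 0.0982 to 0.2 on the others. It was kept, and the results of BEZ235 IC50 that turn on it are given with and without it below. The model estimates each gene's spread from all arrays, so leaving it out also changed calls between other groups. At BKM120 IC30, 2534 genes were called with 40 arrays and 3491 with 39. Some members that gained a call in this way are named below.

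Promoters are shown for 6 members on which the results turn: the 2 members with the largest rises (TM7SF2 and SREBF2), 3 that moved in opposite directions between compounds (HMGCS1, STARD4 and INSIG1), and MYLIP, a target of LXR. Each run gives the 250 bases before an annotated start, 5′ to 3′ on the gene's strand, from RefSeq (GRCh38.p14). HMGCS1 has 2 such windows, and the one with more CCAAT boxes is shown. Its other window holds no CCAAT box. Capitals mark the sterol regulatory element TCACCCCAC and the CCAAT box, searched on both strands, so that a box on the opposite strand reads ATTGG.
SREBF2: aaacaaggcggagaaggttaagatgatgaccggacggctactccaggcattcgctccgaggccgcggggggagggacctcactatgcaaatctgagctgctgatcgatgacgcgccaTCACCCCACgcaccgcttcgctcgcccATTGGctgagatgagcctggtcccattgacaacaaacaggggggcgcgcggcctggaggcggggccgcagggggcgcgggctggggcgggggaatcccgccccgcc
TM7SF2: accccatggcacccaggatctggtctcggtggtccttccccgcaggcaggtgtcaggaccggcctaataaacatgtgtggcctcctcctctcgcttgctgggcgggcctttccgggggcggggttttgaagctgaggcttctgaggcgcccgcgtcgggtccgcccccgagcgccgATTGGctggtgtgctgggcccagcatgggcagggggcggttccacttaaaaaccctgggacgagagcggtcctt
HMGCS1: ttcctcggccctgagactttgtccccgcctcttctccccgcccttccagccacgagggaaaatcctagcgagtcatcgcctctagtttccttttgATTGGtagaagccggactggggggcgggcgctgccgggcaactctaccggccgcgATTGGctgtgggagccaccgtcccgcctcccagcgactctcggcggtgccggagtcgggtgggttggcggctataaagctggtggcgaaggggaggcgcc
STARD4: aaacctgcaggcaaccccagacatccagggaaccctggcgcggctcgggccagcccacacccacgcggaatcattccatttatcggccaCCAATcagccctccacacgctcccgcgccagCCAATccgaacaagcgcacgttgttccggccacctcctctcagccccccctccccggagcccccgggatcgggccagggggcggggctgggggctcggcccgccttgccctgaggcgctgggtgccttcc
INSIG1: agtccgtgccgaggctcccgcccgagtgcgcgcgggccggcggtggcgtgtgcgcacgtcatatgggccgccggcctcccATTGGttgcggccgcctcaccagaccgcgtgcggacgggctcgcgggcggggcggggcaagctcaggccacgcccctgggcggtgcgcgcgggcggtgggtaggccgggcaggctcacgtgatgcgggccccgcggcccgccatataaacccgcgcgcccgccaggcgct
MYLIP: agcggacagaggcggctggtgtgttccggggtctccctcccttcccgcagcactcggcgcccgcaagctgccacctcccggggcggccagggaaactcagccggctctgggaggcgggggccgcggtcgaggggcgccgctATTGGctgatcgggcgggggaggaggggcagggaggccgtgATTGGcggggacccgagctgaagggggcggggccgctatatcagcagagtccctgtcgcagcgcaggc

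These windows lie at chr22:41832855-41833104 (plus strand), chr11:65111622-65111871 (plus), chr5:43313413-43313662 (minus), chr5:111512536-111512785 (minus), chr7:155297628-155297877 (plus) and chr6:16128836-16129085 (plus). SREBF2 was the 1 member of 26 with a window whose window held TCACCCCAC, which was found in 127 of 35116 windows of all genes, or 0.362%. Written with free positions as TCACNCNAC, which includes the first motif, the element lay in the windows of 3 members, FDPS, HSD17B7 and SREBF2, and in 2.02% of all windows. CCAAT lay in 21 of the 37 windows of members, against 32% of all windows. A match describes letters in a window and shows no binding.

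Most members rose at the 2 lower levels of BKM120 and at every level of GDC0941, while 11 to 14 of 25 fell with BEZ235. At BKM120 IC30, 19 of 25 members rose, against 13.2% of all genes tested, and 0 fell, against 8.16%; by limma without adjustment, 21 were higher and 0 lower at p under 0.05. The members' median log2 change was 0.40, beside 0.02 for all genes. At BKM120 IC50 19 rose (12.6% of all genes) and 0 fell (7.24%; without adjustment 1 by limma), with a median of 0.31 beside 0.03.

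With GDC0941 the same held at each level. At GDC0941 IC50, 18 members rose (9.94% of all genes) and 0 fell (6.19%; 0 by limma without adjustment), with a median log2 change of 0.38 beside 0.01. At IC90 17 rose (15.4%) and 0 fell (9.83%; 0 by limma without adjustment), with a median of 0.32 beside 0.02. At the highest level 19 rose (25.5%) and 0 fell (18.2%; 0 by limma without adjustment), and the median was 0.44 beside 0.03.

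BEZ235 gave the opposite balance. At IC50, 12 members fell, against 18.9% of all genes, and 6 rose, against 26.6%, with a median log2 change of -0.18 beside 0.04 for all genes; without replicate 3 the counts were 12 and 6 as well and the median -0.17, but SC5D, INSIG2 and SCAP had lost their call and LSS, NSDHL and PMVK gained one. In a fit of these 2 groups alone, 7 fell and 3 rose. At IC90 14 fell (23.9%) and 5 rose (31.1%), with a median of -0.21 beside 0.04, and at the highest level 11 fell (24.9%) and 5 rose (32.8%), with a median of -0.15 beside 0.04. At BKM120 IC90/max the members showed no common direction: 6 rose (17.2% of all genes), 4 fell (17.0%), and their median was -0.0020, the value of IDI1, which was also the median gene of all genes tested. The share of members that fell there was near that of all genes, and with BEZ235 the share that rose was no higher than among all genes. These 9 comparisons share the same 4 DMSO arrays, so they are not independent of one another.

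**Figure D1:**
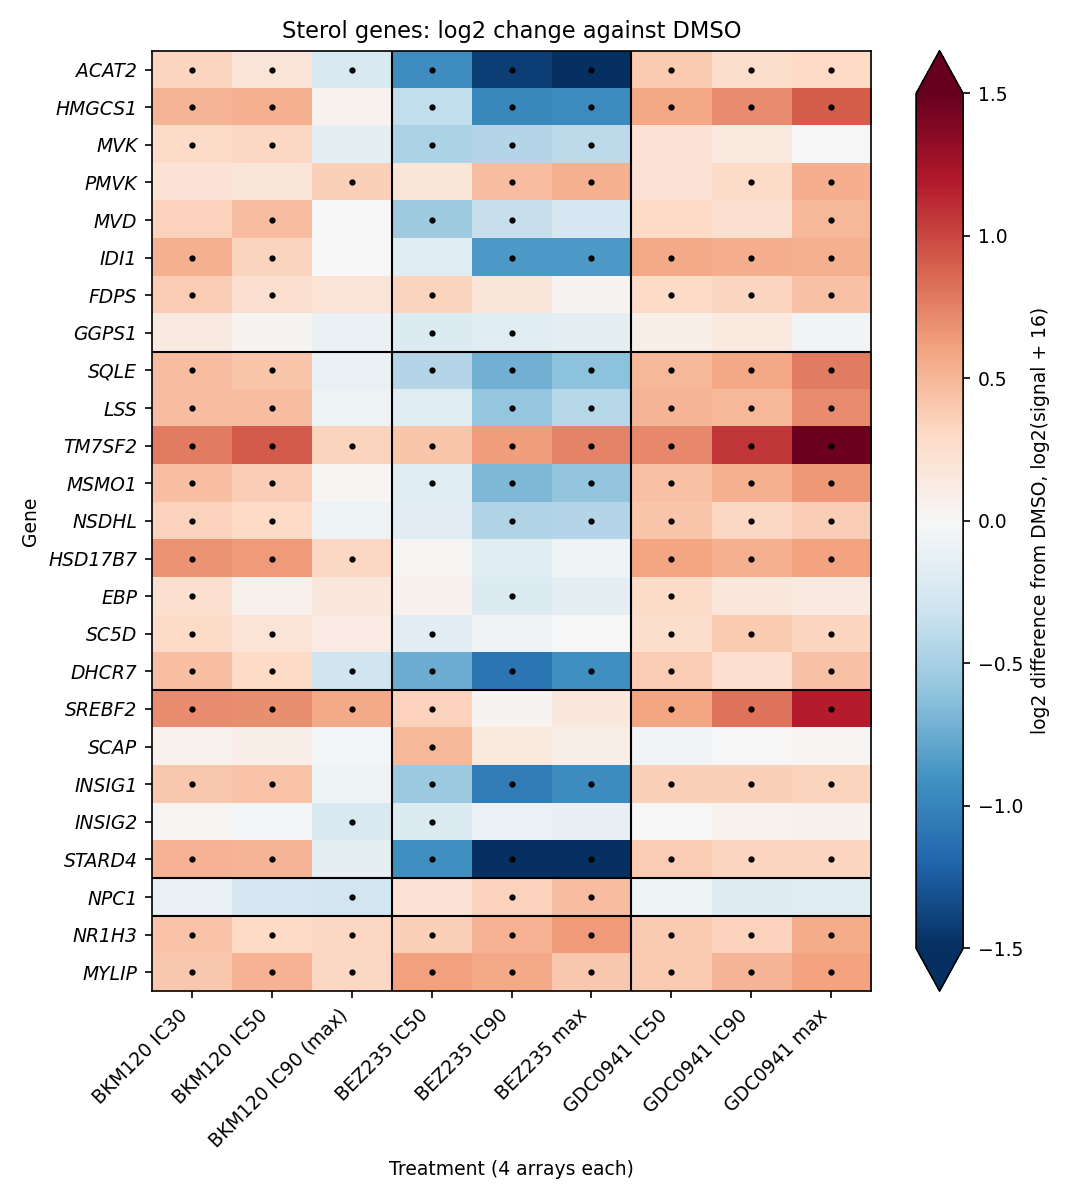
Log2 difference of log2(signal + 16) between each of the 9 treatments and DMSO for the 25 members tested, ordered by role, with 4 arrays in each group and dots where limma's adjusted p was under 0.05. HMGCS1, STARD4, INSIG1 and most sterol enzymes were higher under the lower levels of BKM120 and all levels of GDC0941 and lower under BEZ235, while TM7SF2, NR1H3 and MYLIP were higher under every treatment.

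The first steps, from acetyl-CoA to mevalonate and the isoprenoid diphosphates, hold 8 members. Of these, 5, 6 and 1 rose at BKM120 IC30, IC50 and IC90/max, 4, 5 and 6 at the rising levels of GDC0941, and 1 at each level of BEZ235 (at IC50 PMVK as well as FDPS without replicate 3), where 5, 6 and 4 fell. HMGCS1, the cytosolic HMG-CoA synthase, gave signals of 753.5, 852, 859 and 743 with DMSO. It gave 404, 376, 439 and 388 at BEZ235 IC90 and 1461, 1510.0, 1601 and 1512 at the highest level of GDC0941. All 4 BEZ235 arrays lay below every DMSO array and all 4 GDC0941 arrays above, with no overlap. HMGCS1 fell by 0.97 ± 0.05 on the log2 scale at BEZ235 IC90 (limma, adjusted p = 2.14e-17) and rose by 0.91 ± 0.05 with the most GDC0941 (adjusted p = 2.55e-16). At BKM120 IC30 and IC50 it rose by 0.51 and 0.54, and at IC90/max its difference was 0.05 (95% interval -0.06 to 0.16), not past the threshold.

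ACAT2, the cytosolic acetoacetyl-CoA thiolase that makes the first joining of acetyl-CoA, gave 1103.5, 1093, 1095 and 1050.3 with DMSO and 343, 327.5, 344 and 361 with the most BEZ235. The groups did not overlap, and ACAT2 fell by 1.61 ± 0.06 on the log2 scale (limma, adjusted p = 9.89e-22), after changes of -0.93 at IC50 and -1.41 at IC90. Under GDC0941 it rose by 0.39, 0.26 and 0.29 at the 3 levels. ACAT2 was one of the 4 members that fell at BKM120 IC90/max, where its signals were 934, 882, 963 and 906 and the difference -0.23 ± 0.06 (limma, adjusted p = 0.00441), although it had risen by 0.33 at BKM120 IC30.

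MVK, mevalonate kinase, rose at BKM120 IC30 and IC50 by 0.28 and 0.31 and fell at each level of BEZ235, its log2 changes being -0.47, -0.44 and -0.40. Its differences under GDC0941 were 0.22, 0.14 and -0.0014, none past the threshold. At the highest level the 95% interval was -0.17 to 0.17. At GDC0941 IC50 MVK rose with its probe sets averaged, by 0.29 (limma, adjusted p = 0.00264). It also passed there without replicate 3 of BEZ235 IC50 (limma, adjusted p = 0.0464). PMVK, phosphomevalonate kinase and the next enzyme, went another way. Its DMSO signals were 735, 681, 699.6 and 713, and it rose under the most BEZ235 to 1042, 971, 995 and 1133 and under the most GDC0941 to 948.5, 997, 1124 and 1097, by 0.54 ± 0.10 and 0.55 ± 0.10 on the log2 scale. Neither treated group overlapped DMSO. At BEZ235 IC50 its difference was 0.19 and did not pass (limma, adjusted p = 0.108); replicate 3 read 547 and the other 3 arrays 849.9 to 999, and without that array PMVK rose by 0.37 (adjusted p = 1.12e-05). PMVK was the 1 gene of these 8 that rose at BKM120 IC90/max, by 0.36 (limma, adjusted p = 0.00286). Without replicate 3 of BEZ235 IC50, FDPS passed there too, at 0.20 (limma, adjusted p = 0.024). In that fit PMVK also rose at BKM120 IC30 and IC50 and GDC0941 IC50, by 0.22, 0.18 and 0.21 (limma, adjusted p = 0.00398, 0.019 and 0.00697).

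MVD, mevalonate diphosphate decarboxylase, rose at BKM120 IC50 (0.46) and with the most GDC0941 (0.50) and fell at BEZ235 IC50 and IC90 by 0.54 and 0.35. MVD is dim, at 19.4 to 34.4 with DMSO, where the dimmest gene tested had a mean signal of 14.7. Its call at BKM120 IC50 was lost with a pseudocount of 1 (limma, adjusted p = 0.107). That at BEZ235 IC90 was lost with a pseudocount of 1 or without the filter (limma, adjusted p = 0.0908 and 0.0713). With only the groups compared, BEZ235 IC50 did not pass (limma, adjusted p = 0.106). At BEZ235 IC50 replicate 3 read 3.00 and the other 3 arrays 13.9 to 24.0, and without that array the change of MVD was -0.33 (limma, adjusted p = 0.0416). In that fit MVD also rose at BKM120 IC30, by 0.35 (limma, adjusted p = 0.0293). IDI1, the isopentenyl diphosphate isomerase, gave 1128.5, 1017, 1140.0 and 1128 with DMSO, 543, 823, 529 and 547 at BEZ235 IC90 and 1434, 1691, 1652 and 1675 at GDC0941 IC90; the BEZ235 arrays lay below all DMSO arrays and the GDC0941 arrays above them. Its log2 changes were -0.86 and 0.54. The probe set used for IDI1 can also bind near-identical copies of the gene. A second bright probe set of the same kind, of mean signal 1081, gave -0.76 at BEZ235 IC90 and 0.47 at GDC0941 IC90, while the dim ones, of mean signal 15.7 and 24.8, gave 0.48 and 0.45 at BEZ235 IC90. The direction of IDI1 under BEZ235 thus differed between its bright and its dim probe sets.

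FDPS, which makes farnesyl diphosphate, did not fall anywhere: it rose at BKM120 IC30 and IC50 (0.38 and 0.24), at BEZ235 IC50 (0.33) and at the 3 levels of GDC0941 (0.30, 0.32 and 0.44). At BEZ235 IC50 replicate 3 read 2201 and the others 1505 to 1749. Without that array FDPS rose there by 0.23 and at BEZ235 IC90 by 0.18 (limma, adjusted p = 0.0179 and 0.0337). With only the groups compared, BEZ235 IC50 did not pass (limma, adjusted p = 0.0631). Without the filter, BKM120 IC50 did not pass (limma, adjusted p = 0.0672). GGPS1, which extends farnesyl to geranylgeranyl diphosphate outside the branch to sterol, fell at BEZ235 IC50 and IC90 by 0.21 and 0.18. It passed in no other treatment with all arrays kept. Without replicate 3 of BEZ235 IC50 it also fell with the most BEZ235, by 0.15 (limma, adjusted p = 0.0432). The calls at BEZ235 IC50 and IC90 rest on the probe set used. Averaged over both of its probe sets, GGPS1 was at -0.13 and -0.02 there and did not pass (limma, adjusted p = 0.0573 and 0.76). With that average it passed upward at all levels of BKM120, 0.25, 0.20 and 0.15, and of GDC0941, 0.24, 0.34 and 0.17, where the probe set used gave 0.13, 0.04 and -0.10 and 0.09, 0.15 and -0.04.

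**Figure D2:**
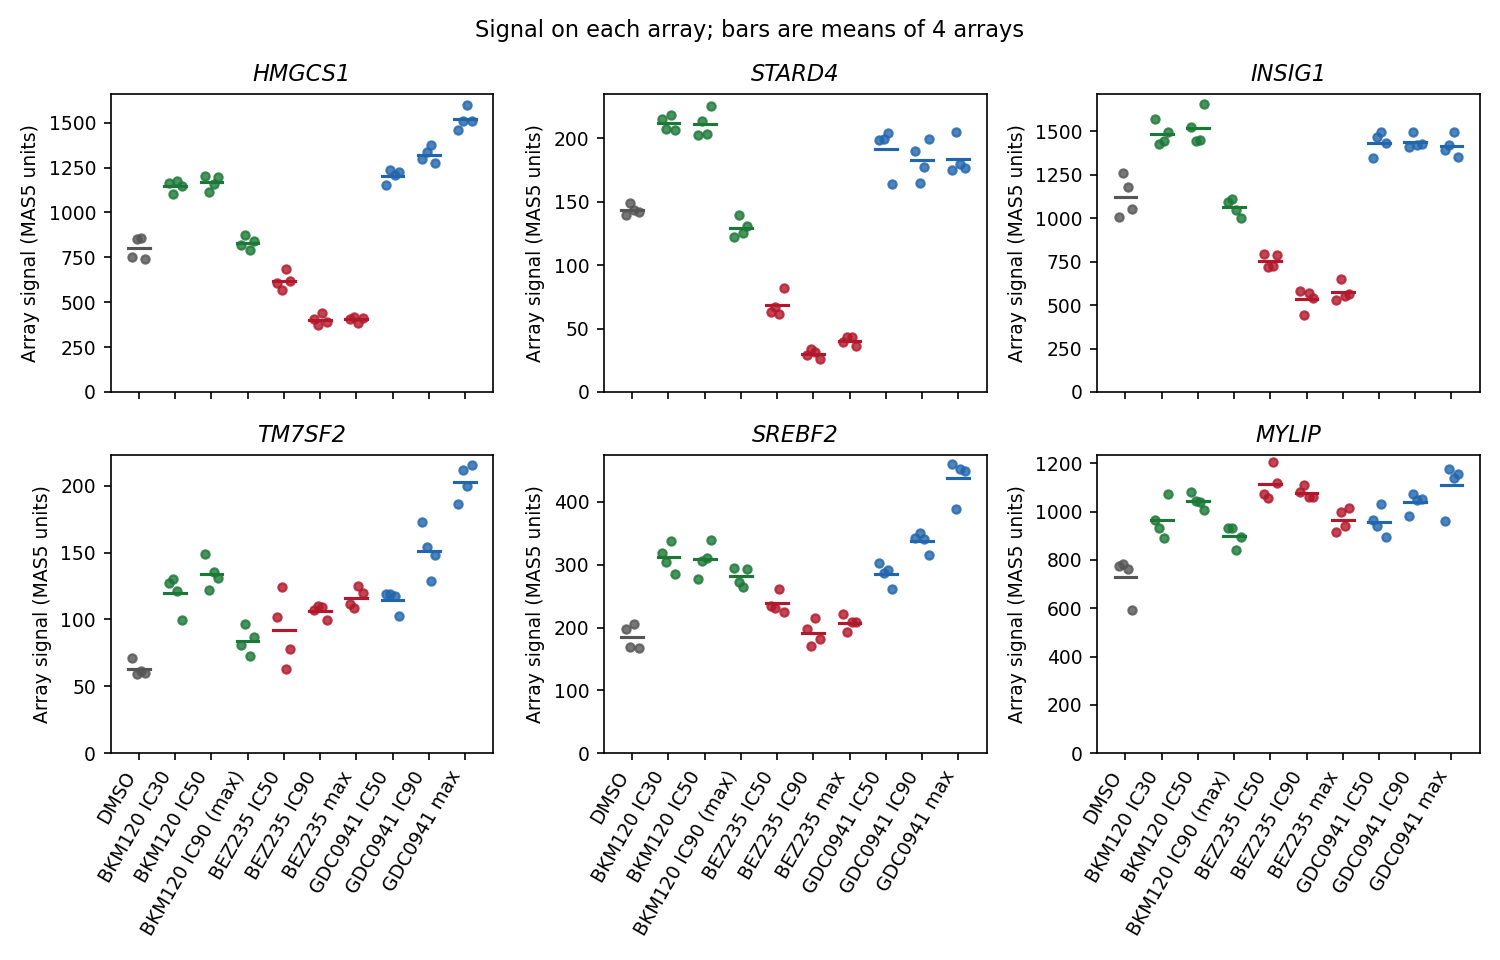
Deposited signals of HMGCS1, STARD4, INSIG1, TM7SF2, SREBF2 and MYLIP on each of the 40 arrays by group, with a linear axis and bars at the mean of 4. STARD4 lies at 25.7 to 33.5 at BEZ235 IC90 against 139 to 149 with DMSO, and TM7SF2 at 186 to 215 with the most GDC0941 against 59.4 to 70.9.

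Of the 11 genes that make squalene and carry it to cholesterol, 9 were tested. All 9 rose at BKM120 IC30 and all 9 at GDC0941 IC50; 8 rose at BKM120 IC50, and 7 and 8 at the higher levels of GDC0941. With BEZ235 4, 6 and 5 of the 9 fell at IC50, IC90 and max, and 1, TM7SF2, rose at each level; without replicate 3 at IC50, LSS and NSDHL fell and SC5D did not pass. At BKM120 IC90/max 2 rose, TM7SF2 and HSD17B7, and 1 fell, DHCR7.

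SQLE, squalene epoxidase and a rate-controlling step of the sterol branch, gave 358, 397, 368 and 383 with DMSO. At BEZ235 IC90 it gave 218, 219, 242 and 214.5, and with the most GDC0941 671, 631, 664 and 658. Neither group overlapped DMSO, and the changes were -0.71 ± 0.06 (limma, adjusted p = 2.26e-12) and 0.78 ± 0.06 (adjusted p = 5.05e-13). LSS, the lanosterol synthase that closes the ring system, rose under BKM120 by 0.46 at IC30 and 0.46 at IC50, and under GDC0941 by 0.51, 0.50 and 0.71. It fell at BEZ235 IC90 and max by 0.58 and 0.42. At BEZ235 IC50 its difference was -0.18 and did not pass; replicate 3 read 566.5 there against 237.5 to 262 on the other 3 arrays, and without that array LSS fell by 0.46 (limma, adjusted p = 8.5e-07).

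TM7SF2, a sterol C14 reductase of the step after lanosterol demethylation, had the largest rise among the 25 members tested and rose in all 9 treatments. Its signals were 70.9, 59.4, 61.7 and 60.2 with DMSO, 149, 122, 135 and 131 at BKM120 IC50, 112, 109, 125 and 120.1 with the most BEZ235 and 186, 212, 199.5 and 215 with the most GDC0941. Each of these treated groups lay above all DMSO arrays. The log2 changes under GDC0941 were 0.72, 1.07 and 1.47 from the lowest to the highest level, the last with an SE of 0.11 (limma, adjusted p = 1.46e-13). Under BEZ235 they were 0.42, 0.63 and 0.74; at BEZ235 IC50, replicate 3 overlapped DMSO, and without it the change was 0.56 (adjusted p = 2.7e-05). Under BKM120 they were 0.77, 0.93 and 0.34.

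MSMO1, which starts removal of the C4 methyl groups, rose by 0.45 and 0.37 at the lower levels of BKM120 and by 0.44, 0.53 and 0.65 with GDC0941, and its log2 changes with BEZ235 were -0.18, -0.68 and -0.60. NSDHL, which acts next in that removal, rose by 0.35 and 0.30 at the same levels of BKM120 and by 0.42, 0.31 and 0.37 with GDC0941, and fell by 0.46 and 0.44 at BEZ235 IC90 and max. At BEZ235 IC50 NSDHL was at -0.17, not past the threshold, with replicate 3 at 671 and the highest of its group; without that array it fell by 0.36 (limma, adjusted p = 1.81e-06). HSD17B7, the ketoreductase of the same complex, rose at all levels of BKM120 and GDC0941, by 0.67, 0.64 and 0.31 and 0.59, 0.54 and 0.60. Under BEZ235 it was at 0.02, -0.18 and -0.05, none past the threshold, and the 95% interval at IC90 was -0.37 to 0.0046. Without replicate 3 of BEZ235 IC50, its fall at BEZ235 IC90 passed (limma, adjusted p = 0.0299). The probe set of HSD17B7 can also bind near-identical copies, so its values are uncertain in that respect.

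EBP, the sterol isomerase, rose at BKM120 IC30 (0.24) and GDC0941 IC50 (0.29) and fell at BEZ235 IC90 (-0.21). Its probe sets disagreed at BEZ235 IC50, where the one used gave 0.06 (-0.07 without replicate 3, not past the threshold either), the other bright ones -0.81 and -0.67 and a dim one, of mean signal 3.25, 0.21. With all averaged, EBP fell by 0.30 there, and its rises at BKM120 IC30 (0.18) and GDC0941 IC50 (0.14) did not pass (limma, adjusted p = 0.104 and 0.25). SC5D, the sterol desaturase that follows, rose at BKM120 IC30 and IC50 (0.29 and 0.20) and with GDC0941 (0.27, 0.39 and 0.32). It fell by 0.16 at BEZ235 IC50, a call lost without replicate 3 (-0.11; limma, adjusted p = 0.098), and was at -0.05 and -0.0042 at the higher levels.

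DHCR7, the reductase that makes cholesterol from 7-dehydrocholesterol, gave 113, 107, 88.4 and 85.9 with DMSO, 131, 148, 143 and 139 at BKM120 IC30, 76.4, 64.5, 76.0 and 89.6 at BKM120 IC90/max and 40.1, 35.5, 39.2 and 34.6 at BEZ235 IC90. BKM120 IC30 lay above DMSO and BEZ235 IC90 below it, with no overlap, while BKM120 IC90/max overlapped DMSO at its highest array. DHCR7 rose by 0.45 ± 0.10 at BKM120 IC30 (limma, adjusted p = 0.000774), fell by 0.30 ± 0.10 at BKM120 IC90/max (adjusted p = 0.0146) and fell by 1.10 ± 0.10 at BEZ235 IC90 (adjusted p = 7.69e-12). Under GDC0941 its changes were 0.38, 0.25 and 0.44, of which the value at IC90 did not pass.

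The SREBP2 control group holds 5 members, SREBF2, SCAP, INSIG1, INSIG2 and STARD4, all tested. SREBF2, INSIG1 and STARD4 rose at BKM120 IC30 and IC50 and at every level of GDC0941; SCAP and INSIG2 passed in none of these. At BEZ235 IC50 2 of the 5 rose and 3 fell, but SCAP among the risen and INSIG2 among the fallen lost their call without replicate 3; at BEZ235 IC90 and max 2 fell, INSIG1 and STARD4.

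SREBF2, the gene of the transcription factor itself and the member whose window holds TCACCCCAC, gave 197.5, 168.5, 206 and 168 with DMSO. It gave 319, 305, 338 and 285 at BKM120 IC30, 198, 170.4, 215 and 182 at BEZ235 IC90 and 461, 389, 453 and 449 with the most GDC0941. The BKM120 and GDC0941 arrays were all above DMSO, and the BEZ235 IC90 arrays overlapped it. SREBF2 rose by 0.59, 0.82 and 1.18 at the rising levels of GDC0941, the last ± 0.08 (limma, adjusted p = 2.15e-15), and by 0.71, 0.69 and 0.57 under BKM120. Under BEZ235 it rose at IC50 (0.34) and was at 0.04 (95% interval -0.11 to 0.20) and 0.16 (0.004 to 0.31) at the higher levels.

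INSIG1, which retains SCAP in the endoplasmic reticulum and is itself a target of SREBP2, gave 1006, 1262, 1179 and 1052 with DMSO, 1523, 1446, 1452 and 1657 at BKM120 IC50 and 584, 444, 569.8 and 544 at BEZ235 IC90. The BKM120 arrays lay above DMSO and the BEZ235 arrays below it. INSIG1 fell by 1.05 ± 0.07 on the log2 scale at BEZ235 IC90 (limma, adjusted p = 2.25e-15), the rise at BKM120 IC50 was 0.43 ± 0.07 (adjusted p = 1.33e-05), and the rises under GDC0941 were 0.35, 0.36 and 0.33. Its relative INSIG2 fell at BKM120 IC90/max by 0.23 and at BEZ235 IC50 by 0.21; without replicate 3 the BEZ235 value was -0.10 and did not pass (limma, adjusted p = 0.247).

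STARD4, a carrier of sterol between membranes and a target of SREBP2, had the widest range of group means among the members, 2.31 on the log2 scale. Its signals were 139, 149, 143 and 142 with DMSO, 215, 207.5, 218 and 206 at BKM120 IC30 and 28.9, 33.5, 31.6 and 25.7 at BEZ235 IC90. All arrays of BKM120 IC30 were above, and all of BEZ235 IC90 far below, the DMSO arrays. STARD4 fell by 1.80 ± 0.08 at BEZ235 IC90 (limma, adjusted p = 1.51e-20), fell by 0.92 at IC50 and passed downward at the highest level too, and rose by 0.52 ± 0.08 at BKM120 IC30 (adjusted p = 4.06e-06) and by 0.38, 0.32 and 0.33 with GDC0941. SCAP, the escort of SREBP2, passed in 1 treatment, BEZ235 IC50, at 0.50 (limma, adjusted p = 0.0228). There replicate 3 read 648 and the other 3 arrays 198.7 to 202, and without that array the change was 0.09 (adjusted p = 0.362).

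NPC1, which releases cholesterol from the lysosome after uptake, was the 1 uptake gene. It gave 434, 432, 420.3 and 529.7 with DMSO and 677, 629, 621 and 598 with the most BEZ235, where it rose by 0.47 ± 0.10 (limma, adjusted p = 0.000205), and it rose by 0.34 at BEZ235 IC90. The lowest BEZ235 array lay above the highest DMSO array. NPC1 fell by 0.28 at BKM120 IC90/max. Its differences were -0.11 and -0.26 at BKM120 IC30 and IC50 and -0.08, -0.20 and -0.19 under GDC0941, none past the threshold with all arrays. When the BEZ235 IC50 array that stood apart was left out, NPC1 fell at BKM120 IC50, GDC0941 IC90 and the most GDC0941 (limma, adjusted p = 0.00237, 0.015 and 0.0137). With only the groups compared, these falls passed too (limma, adjusted p = 0.0211, 0.0439 and 0.0447). Averaged over its probe sets, of which the others are dimmer, NPC1 was at 0.12 at BEZ235 IC90 and -0.056 at BKM120 IC90/max, and neither passed (limma, adjusted p = 0.0972 and 0.503).

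The LXR and export group lists 5 genes, of which NR1H3 and MYLIP were tested, and both rose in all 9 treatments. NR1H3, the gene of LXR alpha, gave 95.3, 112, 110.0 and 115.5 with DMSO and 191, 167, 172 and 180.4 with the most BEZ235, a rise of 0.64 ± 0.08 (limma, adjusted p = 2.31e-08). These groups did not overlap. The changes of NR1H3 were 0.43, 0.29 and 0.31 under BKM120 and 0.39, 0.34 and 0.56 under GDC0941. MYLIP, the ubiquitin ligase through which LXR lowers uptake of lipoprotein, gave 776, 781, 761.5 and 591 with DMSO, 1072, 1058, 1204 and 1116 at BEZ235 IC50 and 959, 1177, 1139 and 1155 with the most GDC0941. Both treated groups lay above all DMSO arrays, with rises of 0.61 ± 0.07 and 0.60 ± 0.07 (limma, adjusted p = 5.27e-09 and 4.46e-09).

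Other genes of the pathway were read from 5 further lists. Of all genes tested, 13.2% rose and 8.16% fell at BKM120 IC30, and 31.1% and 23.9% at BEZ235 IC90. With the most GDC0941 the shares were 25.5% and 18.2%. The counts of the list for SREBP processing lay near these shares. Those for sterol transport lay above them, by a few genes at most. For isoprenoid use, 0 of 12 genes rose at BKM120 IC30 and with the most GDC0941, and 3 fell in each. Of 10 tested of 12 genes that process or retain SREBP, 2 rose and 3 fell at BEZ235 IC90, 2 rose and 2 fell with the most GDC0941, and 2 rose and 0 fell at BKM120 IC30 (1 lower by limma without adjustment). SREBF1, the paralog of SREBF2 that favours fatty acid genes, fell by 0.90 at BEZ235 IC90 and by 0.36 with the most GDC0941, where SREBF2 had risen by 1.18. Among 4 genes that supply acetyl-CoA, ACSS2, the cytosolic acetyl-CoA synthetase, rose by 0.49 at BKM120 IC30 and by 0.65 with the most GDC0941, and ACLY, ATP citrate lyase, fell by 0.30 at BEZ235 IC90. The list as a whole counted 2, 0 and 2 risen and 0, 2 and 0 fallen of 4 in BKM120 IC30, BEZ235 IC90 and the most GDC0941; by limma without adjustment the counts of 0 were 1 higher at BEZ235 IC90 and 0 lower in the others.

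Of 12 tested genes that use isoprenoids, the side branches of the pathway, 0 rose and 3 fell at BKM120 IC30, 3 and 3 at BEZ235 IC90, and 0 and 3 with the most GDC0941; the counts of 0 were 0 by limma without adjustment too. PDSS1, which builds the ubiquinone side chain, fell by 0.66 with the most GDC0941, and COQ2, which attaches that chain, fell by 0.71 at BEZ235 IC90. Of 19 tested of 21 genes of sterol uptake and transport between membranes, 5 rose and 2 fell at BKM120 IC30, 7 and 7 at BEZ235 IC90 and 6 and 5 with the most GDC0941. The lipoprotein receptor LRP8 fell by 1.49, and GRAMD1A, a sterol carrier at membrane contacts, rose by 1.02 at BEZ235 IC90. Of 7 tested of 10 partners and targets of LXR, 3, 4 and 6 rose at BKM120 IC30, BEZ235 IC90 and the most GDC0941, and 0 fell in each, with or without adjustment by limma; PLTP, the phospholipid transfer protein, rose by 0.75 at BEZ235 IC90 and 0.56 with the most GDC0941.

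The compounds were then compared directly at levels of the same name, in 7 pairs of groups, without the DMSO arrays in the difference. Most synthesis genes were lower with BEZ235 than with GDC0941. At IC50, 19 of 25 members were lower with BEZ235, against 15.5% of all genes, and 3 were higher (18.6%), SCAP, NPC1 and MYLIP, with a median log2 difference of -0.57 beside 0.03 for all genes. Without replicate 3 of BEZ235 IC50, 17 were lower and 0 higher, TM7SF2 and INSIG2 having lost their call as lower (without replicate 4 of GDC0941 IC50 1 was higher), MYLIP being at 0.17 (limma, adjusted p = 0.0523); with its probe sets averaged and all arrays kept, MYLIP was at -0.054. At IC90 18 were lower (20.0%) and 1 was higher (23.0%), NPC1 by 0.54 ± 0.10, with a median of -0.59 beside 0.02 for all genes; without replicate 4 of GDC0941 IC90, 2 were higher, and with its probe sets averaged NPC1 was at 0.14 and did not pass (limma, adjusted p = 0.0563). At the highest levels 19 were lower (17.8%) and 1 higher (18.7%), again NPC1, and the median was -0.73 beside 0.01 for all genes.

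STARD4 gave 189.8, 165, 177 and 199 at GDC0941 IC90, against 25.7 to 33.5 at BEZ235 IC90. The groups were far apart, and the difference was -2.11 ± 0.08 on the log2 scale (limma, adjusted p = 2.54e-22). Next in size at IC90 were HMGCS1 (-1.68), ACAT2 (-1.67), INSIG1 (-1.41), IDI1 (-1.40, with the caveat on its probe sets above), DHCR7 (-1.35) and SQLE (-1.30). TM7SF2 and SREBF2, which did not fall under BEZ235 against DMSO, were lower with BEZ235 than with GDC0941 by 0.44 and 0.77 at IC90. PMVK, FDPS, SCAP, INSIG2, NR1H3 and MYLIP did not pass there with all arrays, and for PMVK the difference was 0.19 (95% interval -0.01 to 0.38). When the BEZ235 IC50 array that stood apart was left out, PMVK passed as higher with BEZ235 (limma, adjusted p = 0.00828). PMVK passed with only the groups compared too (limma, adjusted p = 0.00257).

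BKM120 and GDC0941 at IC50 were the one pair without a member past the threshold: 0 were higher and 0 lower by limma, against 0.455% and 0.143% of all genes, and without adjustment 0 were higher and 3 lower. Without replicate 3 of BEZ235 IC50, ACAT2 passed as lower, at -0.20 (limma, adjusted p = 0.0481). The members' differences ran from -0.23 for IDI1 (95% interval -0.44 to -0.02) to 0.20 for TM7SF2 (-0.02 to 0.43), and the median was -0.05 beside 0.0046 for all genes. HMGCS1, for example, gave 1203, 1113, 1159 and 1199 with BKM120 and 1151, 1234, 1211 and 1226 with GDC0941, and the ranges overlapped. Against BEZ235 at IC50, BKM120 left 17 members higher (15.2% of all genes) and 1 lower (16.9%), NPC1, with a median of 0.51 beside -0.02 for all genes; without replicate 3 of BEZ235 IC50, 17 were higher and 2 lower, PMVK being the other, and 2 were also lower without any other of the BEZ235 arrays in turn.

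At its level named IC90/max, BKM120 left most genes of synthesis above their levels at BEZ235 IC90 and many below those at GDC0941 IC90. Against GDC0941 IC90, 17 members were lower (18.2% of all genes) and 0 higher (11.7%; 0 by limma without adjustment), with a median log2 difference of -0.28 beside -0.03 for all genes. The largest were TM7SF2 (-0.74 ± 0.11), SQLE (-0.69 ± 0.06) and HMGCS1 (-0.66 ± 0.05). SREBF2 was lower by 0.25, but 0.052 higher with its probe sets averaged. Against BEZ235 IC90, 15 were higher (18.5%) and 4 lower (26.6%), TM7SF2, NPC1, NR1H3 and MYLIP, with a median of 0.37 beside -0.04 for all genes; 2 of the 4 lost their call without 1 of 4 arrays in turn, replicates 1 and 3 of BKM120 IC90/max and 1 and 2 of BEZ235 IC90. STARD4 was the furthest apart, at 1.66 ± 0.08 (limma, adjusted p = 6.58e-19).

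**Figure D3:**
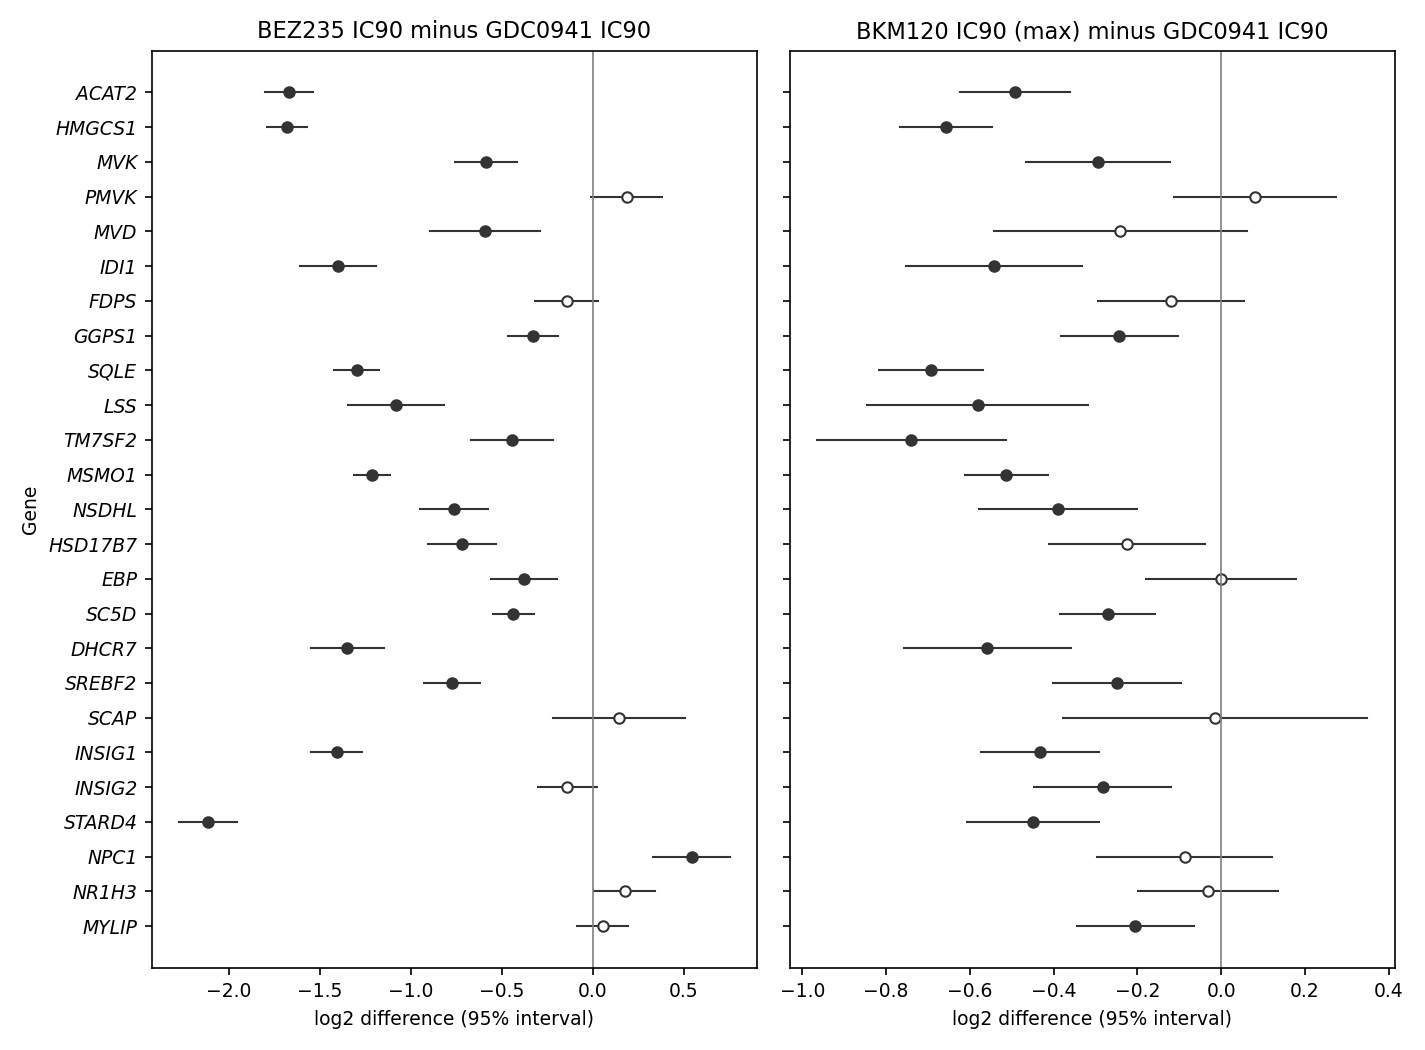
Log2 difference with its 95% interval for 25 members, BEZ235 IC90 minus GDC0941 IC90 on the left and BKM120 IC90/max minus GDC0941 IC90 on the right, with 4 arrays a group and a different axis range in each panel; filled points passed limma's adjusted p of 0.05. STARD4 is furthest left for BEZ235 at -2.11, NPC1 is the 1 filled point to the right, and in the right panel TM7SF2 is furthest left at -0.74.

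Within a compound, the highest level was set against the lowest. With BKM120 the rise seen at IC30 was not kept: 16 of 25 members were lower at IC90/max than at IC30, against 19.7% of all genes, and 0 were higher (14.3%; 0 by limma without adjustment), with a median log2 difference of -0.36 beside -0.03 for all genes. DHCR7 was lower by 0.76 ± 0.10, STARD4 by 0.65 ± 0.08 and SQLE by 0.57 ± 0.06. SREBF2 was at -0.14 (95% interval -0.29 to 0.02), and NR1H3 and MYLIP at -0.12 and -0.10, none past the threshold. The 4 falls against DMSO at IC90/max (ACAT2, DHCR7, INSIG2 and NPC1) became 2 without replicate 1 of DMSO, or without replicate 2 of BKM120 IC90/max.

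With GDC0941 7 members were higher at the highest level than at IC50 (16.3% of all genes) and 1 was lower (13.3%), with a median of 0.06 beside 0.02 for all genes. TM7SF2 (0.75 ± 0.11), SREBF2 (0.59 ± 0.08), HMGCS1 (0.33), PMVK (0.33), SQLE (0.27), MSMO1 (0.21) and MYLIP (0.20) rose with level. MVK was the 1 lower (limma, adjusted p = 0.044), a call that was lost without any 1 of 7 of the 8 arrays. STARD4 and INSIG1 were at -0.05 and -0.02, not past the threshold. With BEZ235 11 members were lower at the highest level than at IC50 (18.9%) and 4 higher (20.2%), with a median of -0.19 beside 0.002 for all genes. The higher were PMVK, TM7SF2, SC5D and NR1H3, of which the count became 2 without replicate 3 of the highest level, and ACAT2 was lower by 0.69 and STARD4 by 0.57. Without replicate 3 of BEZ235 IC50, 8 were lower and 3 higher: TM7SF2 (0.19; limma, adjusted p = 0.144) and SC5D (0.10; 0.122) lost their call, NPC1 gained one (0.44; 2.3e-06), FDPS, NSDHL, SREBF2 and MYLIP no longer passed as lower, and DHCR7 did.

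**Figure D4:**
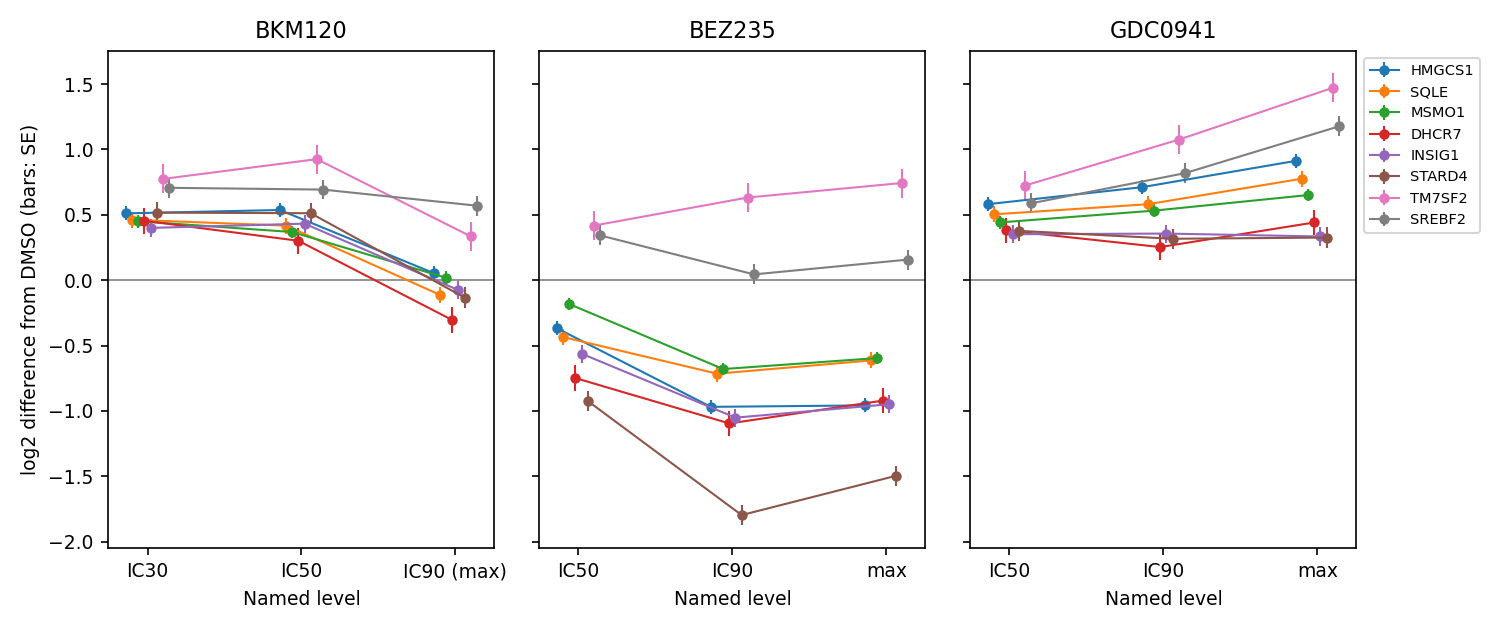
Log2 difference from DMSO, with its SE, of 8 members by level in 3 panels, 1 for each compound (4 arrays a group). HMGCS1, SQLE, MSMO1, DHCR7, INSIG1 and STARD4 drop to near or below zero at BKM120 IC90/max, lie below zero with BEZ235 and above it with GDC0941, while TM7SF2 reaches 1.47 and SREBF2 1.18 with the most GDC0941.

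Whether the step from the level named IC50 to that named IC90 differed between compounds was tested as an interaction. The step of BKM120 minus that of GDC0941 was below zero for 12 of 25 members and above zero for 0 (without adjustment 16 and 0 by limma), beside 19.2% of all genes called in either direction, with a median of -0.31 beside -0.04 for all genes. TM7SF2 had the largest, -0.94 ± 0.16 (limma, adjusted p = 2.56e-05): it gave 80.7, 96.2, 72.3 and 86.6 at BKM120 IC90/max after 149, 122, 135 and 131 at IC50, and 173, 154, 129 and 148 at GDC0941 IC90 after 119, 119, 117.5 and 102.5 at IC50. The level of TM7SF2 was lower at the higher of both levels of BKM120 and higher at that of GDC0941, without overlap within either compound. HMGCS1 (-0.61), SQLE (-0.61), STARD4 (-0.58) and LSS (-0.54) followed. The step of BKM120 minus that of BEZ235 passed for 6 members, 5 below zero and 1 above, beside 24.5% of all genes, with a median of -0.13 beside -0.03 for all genes. TM7SF2 (-0.81) and MVK (-0.49) passed with all arrays and without replicate 3 of BEZ235 IC50, whereas MVD, SQLE, EBP and INSIG2 passed with all arrays only, and LSS, NSDHL and NPC1 only without that array. Fewer passed below zero, 3, without replicate 2 of BKM120 IC50, replicate 2 of BKM120 IC90/max, or replicate 1 or 3 of BEZ235 IC90, and the count above zero ranged from 0 to 2 as single arrays were left out.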

How the data were processed

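Total RNA of A2058 cells (10 groups of 4) was amplified from 50 ng and hybridised to arrays of 54675 probe sets, per the labels' protocols. The authors deposited linear intensity values made with MAS5, per the submitters' processing notes; its version is not given in the sources used here, and each array's mean after trimming 2% at both ends is near 150. Probe sets with 1 gene symbol (41097) were kept, and those with several (1801) or none (11777) were left out. The 62 array controls were left out too.

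For each of 19775 genes 1 probe set was used, that with the highest mean of log2(value + 16), and 11865 genes above the 40th percentile of that mean were tested. One limma 3.58.1 model (R 4.3.3) over all 40 arrays, with a mean per group and 30 residual degrees of freedom, gave 19 differences and 2 interactions, adjusted by Benjamini-Hochberg over all genes tested. The scripts were tested on simulated data. All members may be named, and of each further list up to 3 genes with the largest change among those called in a comparison. Members and lists were chosen with earlier results of these data known. The 10 alternatives covered the pseudocount, the filter, normalisation, the choice of probe set, the arrays and groups fitted and a replicate block, beside leaving out each replicate.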

Additional observations from a re-analysis of the deposited data

Results flagged for a closer look

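Among 250 sets of 4 arrays, 1 set for each of 25 members in each of 10 groups, 20 held an array that lay far from the other 3 by Dixon's test; chance marks about 1 in 20 sets. Of these, 4 belonged to replicate 3 of BEZ235 IC50, the array with the high 3′ to 5′ ratios: LSS read 566.5 against 237.5 to 262 on the other 3 arrays, NSDHL read 671 against 372 to 405 on the other 3 arrays, SCAP read 648 against 199 to 202 on the other 3 arrays, and NPC1 802 against 453 to 471. The others are given with the range of the remaining 3 arrays of the group in parentheses. ACAT2 read 1529 in replicate 3 of GDC0941 max (1262 to 1283), MVD read 36.7 in replicate 3 of BKM120 IC90/max (23.3 to 24.4), and IDI1 read 1017 in replicate 2 of DMSO (1128 to 1140.0) and 823 in replicate 2 of BEZ235 IC90 (529 to 547) and 1434 in replicate 1 of GDC0941 IC90 (1652 to 1691). GGPS1 read 718 in replicate 4 of DMSO (562 to 586), SQLE read 242 in replicate 3 of BEZ235 IC90 (214.5 to 219) and 564 in replicate 3 of GDC0941 IC50 (529 to 534), and TM7SF2 read 102.5 in replicate 4 of GDC0941 IC50 (117.5 to 119). SC5D read 839.5 in replicate 1 of GDC0941 IC90 (949 to 965), SREBF2 read 389 in replicate 2 of GDC0941 max (449 to 461), and INSIG2 read 427 in replicate 3 of GDC0941 IC50 (413 to 414). STARD4 read 164 in replicate 4 of GDC0941 IC50 (198 to 204), NPC1 read 529.7 in replicate 4 of DMSO (420.3 to 434), and MYLIP read 591 in replicate 4 of DMSO (761.5 to 781) and 959 in replicate 1 of GDC0941 max (1139 to 1177).

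The step from the level named IC50 to that named IC90 differed between compounds in 18 of 50 tests by limma's interaction term. For BKM120 against GDC0941 the differences of the log2 steps were ACAT2 -0.30, HMGCS1 -0.61, MVK -0.39, SQLE -0.61, LSS -0.54, TM7SF2 -0.94, MSMO1 -0.44, DHCR7 -0.48, SREBF2 -0.35, INSIG1 -0.51, STARD4 -0.58 and MYLIP -0.33. For BKM120 against BEZ235 they were MVK -0.49, MVD -0.65, SQLE -0.25, TM7SF2 -0.81, EBP 0.38 and INSIG2 -0.32. Those of MVD, SQLE, EBP and INSIG2 did not pass without replicate 3 of BEZ235 IC50. For BKM120 against GDC0941 with probe sets averaged, SREBF2 (-0.042) and MYLIP (-0.15) did not pass (limma, adjusted p = 0.776 and 0.332). LSS did not pass there without the filter (limma, adjusted p = 0.0546).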

How the results depend on the processing

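Counts of members called, and each log2 value, were recomputed under 10 alternatives. Of 3193 called values under the planned settings, 3077 kept direction and call, 102 lost the call and 14 reversed; of 2760 values without 1 replicate, 2579 kept both, 181 lost the call and 0 reversed. Values that changed sign, 3 of them not called before, came from the choice of probe set. With the mean over a gene's probe sets these were GGPS1 at BKM120 IC90/max (0.15) and with the most GDC0941 (0.17), EBP at BEZ235 IC50 (-0.30), MYLIP between BEZ235 and GDC0941 at IC50 (-0.054) and SREBF2 between BKM120 IC90/max and GDC0941 IC90 (0.052). With cross-hybridising probe sets used last, IDI1 was at -0.024 and -0.049 at BKM120 IC30 and IC50, 0.48 and 0.24 at BEZ235 IC90 and max, and -0.028 at GDC0941 IC50. Between compounds it was at -0.13 and -0.51 (BKM120 minus BEZ235 at IC50 and IC90), and 0.11, 0.37 and 0.081 (BEZ235 minus GDC0941 at IC50, IC90 and max). Between levels it was at 0.00019 for BKM120 and 0.16 for BEZ235.

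Some small counts of members moved; the cause was not tested. MVK, the 1 member lower with the most GDC0941 than at IC50, gave a count of 0 with a pseudocount of 1, without the filter, with the filter at the 60th percentile and with only the groups compared. In the BKM120 minus BEZ235 step, the 1 above zero became 2 with a pseudocount of 1 or quantile normalisation and 0 with the mean over probe sets, 39 arrays or only the groups compared; the 5 below became 2 with the 60th percentile or only the groups compared. With the mean over probe sets, the member lower with BKM120 than BEZ235 at IC50 became 0, the 3 higher with BEZ235 than GDC0941 at IC50 became 1, and the 1 higher at IC90 became 0. That last count was 2 with cross-hybridising sets last, with 39 arrays and with only the groups compared. With 39 arrays, the counts lower than DMSO at BKM120 IC50, GDC0941 IC90 and the most GDC0941 went from 0 to 1 each, lower with BKM120 than BEZ235 at IC50 from 1 to 2, lower with BKM120 than GDC0941 at IC50 from 0 to 1, higher with BEZ235 than GDC0941 at IC50 from 3 to 0, and higher at BKM120 IC90/max than IC30 from 0 to 1. Over all genes, 71 were called between BKM120 and GDC0941 at IC50 with 40 arrays and 494 with 39. With only the groups compared, those counts were 1, 1, 1, 0, 3, 0 and 1 in the same order, at BEZ235 IC50 3 rose and 7 fell, 0 were higher and 6 lower with the most BEZ235 than at IC50, and 1 step was above zero for BKM120 minus GDC0941.

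Without 1 replicate in turn, the counts ranged from 2 to 4 for falls at BKM120 IC90/max, 1 to 2 for members lower with BKM120 than BEZ235 at IC50 and 2 to 4 at IC90. They ranged from 0 to 3 for members higher with BEZ235 than GDC0941 at IC50 and 1 to 2 at IC90, from 2 to 5 for those higher with the most BEZ235 than at IC50, and from 0 to 1 for those lower with the most GDC0941 than at IC50. The BKM120 minus BEZ235 steps ranged from 0 to 2 above and 3 to 6 below zero. Replicate numbers were not taken as pairs: same-number correlations ran from -0.32 to 0.31, and in 0 of 19 comparisons was every pair over 0.1. For the most BEZ235 and the most GDC0941 against DMSO, 2 of 4 pairs were over 0.1, so this rule does not exclude a partial pairing. With the replicate number as a block, 0 of 42 counts moved past 1.5 times and 1 member call changed, MVD at BEZ235 IC90 (-0.35; limma, adjusted p = 0.0531). Dim genes are the limit of the arrays: ABCA1 and ABCG1 could not be judged.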
